A study of Homo sapiens with 6 samples.

Results

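PTCH1, the Hedgehog receptor, and the 6 genes that carry its signal inside the cell (SMO, SUFU, KIF7, GLI1, GLI2 and GLI3) were followed through a human RNA-seq table of 33644 genes. All 7 are in the table. They were chosen by name after PTCH1 had been singled out on its deposited log2 fold change, which was among the lowest in the table, so the fold changes of this comparison are given as a description of the members and not as a test of them. The labels describe 3 samples of HEK293T cells with the genotype alt-LAMA3 KO and 3 samples of HEK293T cells with the genotype WT, all at day 0 and with no treatment. HEK293T is a line of human embryonic kidney origin with the large T antigen of SV40, and both genotypes were kept in DMEM with fetal bovine serum. The labels do not say whether the knockout line was 1 clone or whether samples of a genotype were separate cultures. P-values may therefore measure technical spread only.

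The processed table holds 1 comparison between 2 groups that its header does not name, and no value per sample. A positive log2 fold change is written here as higher in the numerator group and a negative one as lower in the numerator group, with the denominator group as the other side. Neither is equated with the knockout or with the wild type. The level of a gene is the authors' mean normalized count over all libraries in the table, so levels in each group and in each sample were not analysed here. Nor can a level be given an error. In bulk RNA, fewer cells that express a gene and less RNA per cell cannot be told apart.

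The labelled cell type did not match the levels of its markers. Of 9 genes typical of HEK293-derived lines, 0 reached 5 per 1000000 of the summed means (a mean normalized count of 72.0, used here as the minimum for calling a gene expressed), 3 were listed at 0, and the highest was KRT8 at 3.42 in the authors' deposited table. Of 10 T-cell markers, 8 reached that level, and CD8A stood at 27074 in the authors' deposited table. By the deposited adjusted p, with a threshold of 0.05, the T-cell markers were higher in 0 and lower in 6 of the 9 that have one (66.7% called), and their median was -0.51 on the log2 scale. Over all genes, 29.5% of 13957 passed that threshold, 14.7% higher and 14.8% lower. That share includes many genes of low mean. With the test limited to genes at or above 72.0, 3797 of the 8315 genes passed. Of 30 markers of 7 other cell types in the table, 3 reached the minimum, and of the 17 with an adjusted p, 3 were higher and 4 were lower (41.2% called). Of those 3, TP63, a marker of keratinocytes, was higher at 1.86 (SE 0.25) and NCAM1, a marker of natural killer cells, was lower at -1.61 (SE 0.10) in the authors' deposited table. PECAM1, an endothelial marker, did not pass, with 0.10 (SE 0.08) in the authors' deposited table. The part of these markers in the results on Hedgehog genes was not tested. Low means shared by many genes took 9 distinct values, although 6 samples are labelled. At 3 of these values genes had positive fold changes, at 3 they had negative ones and at 3 a fold change of 0. If each value is 1 read in 1 library, the means over all libraries may include libraries of neither compared group. A level given here may then not be that of the 2 compared groups. This was not tested.

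In the Hedgehog pathway, PTCH1 keeps the membrane protein SMO inactive until a secreted ligand (SHH, IHH or DHH) binds PTCH1. Active SMO acts at the primary cilium on SUFU and KIF7, which otherwise promote the processing or retention of the zinc-finger transcription factors GLI2 and GLI3. GLI factors then switch on target genes that include GLI1 and PTCH1 itself, so that PTCH1 is both the receptor and a target of its own pathway. Lymphocytes do not build a typical primary cilium, and in mouse cytotoxic T lymphocytes Hedgehog components have been described at the immune synapse.

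Because PTCH1 can be a target of GLI factors, the bases before its transcript starts were read from RefSeq windows of GRCh38.p14 (250 bases before to 50 after each start). Windows were matched for 5 of the 7 members, with 5 windows for PTCH1, 2 for GLI2 and 1 each for SMO, SUFU and KIF7. The GLI motif GACCACCCA, searched on both strands, was found in 1 of the 5 PTCH1 windows and in no window of the other 4 genes. Among all windows, 83 of 35116 (0.236%) hold it. The match begins 172 bases before the start and lies on the strand opposite to the gene. The 250 bases before that start are shown because they hold the match, at chr9:95509267-95509516 on the minus strand, 5′ to 3′ along the gene. They lie inside the PTCH1 locus and overlap no PTCH1 exon of GENCODE 29, and are therefore intronic for transcripts that start farther upstream. The 250 bases before the SUFU start, at chr10:102503722-102503971 on the plus strand, are shown beside them as those of the other expressed member, which hold no match. Capitals mark the motif, as it reads on the gene's strand.

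PTCH1: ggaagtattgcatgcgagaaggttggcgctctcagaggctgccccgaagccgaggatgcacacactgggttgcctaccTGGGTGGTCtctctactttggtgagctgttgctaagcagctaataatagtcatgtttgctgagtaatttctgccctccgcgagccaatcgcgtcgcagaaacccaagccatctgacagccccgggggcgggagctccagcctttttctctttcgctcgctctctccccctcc

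SUFU: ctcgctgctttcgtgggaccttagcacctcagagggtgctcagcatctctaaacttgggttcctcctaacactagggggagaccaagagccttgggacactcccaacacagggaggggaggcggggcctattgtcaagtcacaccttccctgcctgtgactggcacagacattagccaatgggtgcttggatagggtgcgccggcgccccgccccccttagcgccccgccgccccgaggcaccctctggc

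The shorter core CCACCC, which is part of the longer motif, was found on either strand in 34.3% of all windows. It was present in 2 of 5 PTCH1 windows, in 1 of 2 GLI2 windows and in none for SMO, SUFU or KIF7. Stretches of 28 bases around 3 of these cores are given for comparison, with the core in capitals as it reads on the gene's strand. The PTCH1 stretches lie at chr9:95509421-95509448, where the core is that of the longer motif, and at chr9:95517020-95517047, 65 bases before the farthest upstream of the RefSeq starts, both on the minus strand. The second of these lies within an exon of PTCH1 in GENCODE 29, which places the gene's end farther upstream than that RefSeq start, and the first lies in an intron. The GLI2 stretch lies at chr2:120735694-120735721 on the plus strand, 163 bases before its RefSeq start and in an intron of the GENCODE 29 gene.

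PTCH1, with the longer motif: gttgcctacctGGGTGGtctctctactt

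PTCH1, farthest upstream RefSeq start: gggcggggagaGGGTGGctaggctcgcg

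GLI2: tccttggtgctGGGTGGggagagtccct

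A motif match is a description of the letters and not of binding. Of the 32 genes with the longer motif in a window and with an adjusted p, 4 were higher and 1 was lower in the numerator group. That 1 is PTCH1. Of the 9928 tested genes with any window, 1595 were higher and 1594 lower.

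Expressed members were PTCH1 and SUFU, 2 of the 7. SUFU, the inhibitor that binds GLI proteins (ENSG00000107882.11; chromosome 10 from 102503987 to 102633535, plus strand; GRCh38, GENCODE 29), had a mean normalized count of 506 in the authors' deposited table, or 35.1 per 1000000 of the summed means. PTCH1 (ENSG00000185920.15; chromosome 9 from 95442980 to 95517057, minus strand) had 408 in the authors' deposited table, or 28.3 per 1000000, above 77.4% of the genes with a mean over 0. If the shared lowest means are those of 1 read in 1 library, the PTCH1 mean stands for between 2774 and 6953 reads over all libraries. SUFU lay above 79.8% of the same genes.

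GLI2, the main activator among the GLI factors (ENSG00000074047.21; chromosome 2 from 120735623 to 120992653, plus strand), was lower, with a mean normalized count of 30.7 in the authors' deposited table (2.13 per 1000000, or 209 to 524 reads on the same reading). It counted as expressed at a minimum of 1 per 1000000 and not at 5. GLI1, the factor that is itself a GLI target (ENSG00000111087.9; chromosome 12 from 57460135 to 57472262, plus strand), had a mean of 5.37 in the authors' deposited table. It overlaps ARHGAP9 on the opposite strand, which had a mean of 2817 in the authors' deposited table. Whether the counting used strand is not given in the sources used here, so reads of ARHGAP9 cannot be told apart from the few of GLI1.

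The remaining members were at or near 0. KIF7, a ciliary kinesin that regulates GLI processing (ENSG00000166813.14; chromosome 15 from 89608789 to 89655451, minus strand), had a mean of 1.33 in the authors' deposited table and overlaps TICRR, on the opposite strand, at 1313. GLI3, the main repressor among the GLI factors (chromosome 7 from 41960950 to 42237870, minus strand), had a mean of 0.234 in the authors' deposited table. If the shared lowest means are those of 1 read in 1 library, that is fewer than 4 reads in all. No sum of so few shared means equals the GLI3 mean, however, so that reading did not hold exactly for this gene. SMO, the signal transducer (ENSG00000128602.9; chromosome 7 from 129188872 to 129213545, plus strand), was listed at 0 in the authors' deposited table. A value of 0 may stand for no mRNA or for reads that were not counted, and the table does not tell which. By means over all libraries, the receptor and SUFU were thus well above the minimum, GLI2 was below it, and the transducer that links them was at 0. PTCH1 was 16.4-fold lower in the numerator group, so its pooled mean does not give its level in either group. Whether PTCH1 reached the minimum in the numerator group was not tested.

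**Figure D1:**
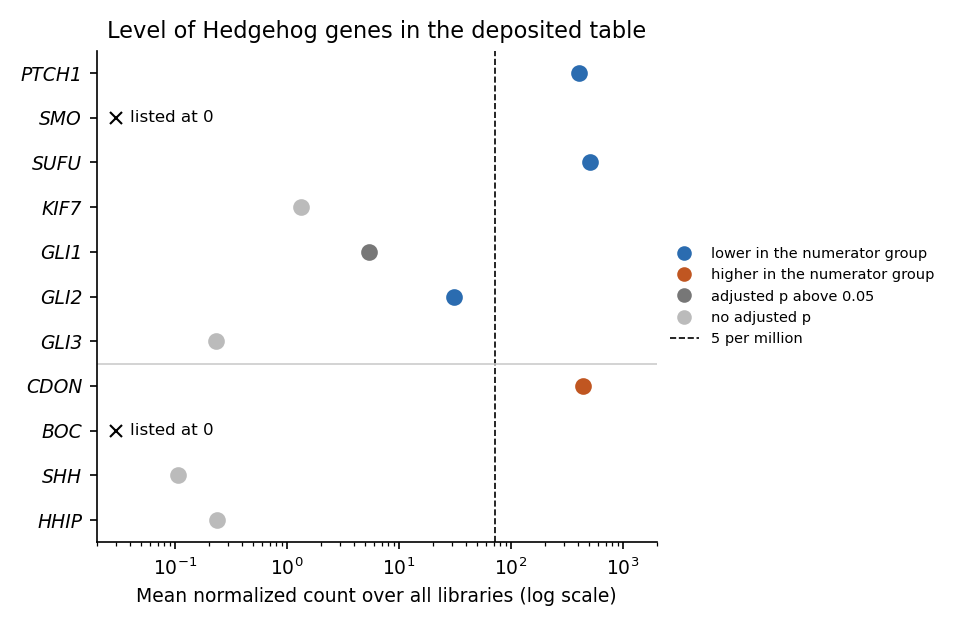
Mean normalized count over all libraries (log axis) for the 7 members, above the grey line, and for CDON, BOC, SHH and HHIP, below it. Colour gives the deposited call, and a cross marks a gene listed at 0. PTCH1 (408), SUFU (506) and CDON (436) lie right of the dashed line at 72.0, and the other 8 genes lie left of it or at 0.

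Counts rise with transcript length, so the members were also ordered by the mean normalized count per kilobase of merged exons in GENCODE 29. On that scale SUFU came first at 73.8 per kilobase and PTCH1 second at 24.6. GLI2 followed at 4.18, GLI1 at 1.28, KIF7 at 0.266 and GLI3 at 0.0214 per kilobase, with SMO at 0. Without values per sample, it is not known which neighbours in this order differ beyond their spread.

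PTCH1 had the largest fold change of the members. Its log2 fold change was -4.03 (SE 0.25) in the authors' deposited table, which is 16.4-fold lower in the numerator group (95% interval 11.7 to 22.9). By fold change it ranked 3 among the 1797 expressed genes that were lower, and 45 among all 2066 that were lower. Its standard error was larger than those of 91.8% of the 1859 genes whose means lay within 1.5-fold of its own, the median of which was 0.15.

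PTCH1 was not the only member past the threshold. By the same adjusted p, 3 of the 4 members that have one were lower in the numerator group and 0 were higher, the other 3 members having none or no level. Over all genes, 14.8% were lower. PTCH1 was chosen on this comparison, and nothing is read from that count. In the authors' deposited table GLI2 stood at a log2 value of -3.84 (SE 1.08, adjusted p = 0.00197), a 14.3-fold lower value with a wide 95% interval of 3.31 to 62.1. For SUFU the authors' deposited table gave -0.47 (SE 0.13, adjusted p = 0.00143), or 1.38-fold lower (95% interval 1.16 to 1.65). The receptor and GLI2 thus had fold changes of like size, and SUFU a small one in the same direction.

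The fold change of PTCH1 minus that of GLI2 was -0.19 on the log2 scale (95% interval -2.36 to 1.98), an interval wide enough for either to be the more reduced. Against SUFU the difference was -3.57 (-4.11 to -3.02), and against GLI1 it was -3.92 (-6.82 to -1.01). These intervals take the errors of different genes as independent and are descriptions, since PTCH1 was chosen for its fold change. For GLI1 the authors' deposited table gave -0.12 (SE 1.46, adjusted p = 0.971), and its 95% interval from -2.98 to 2.74 includes large changes in either direction. KIF7 at 0.89 (SE 2.03) and GLI3 at 1.21 (SE 4.06) have no adjusted p in the authors' deposited table.

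**Figure D2:**
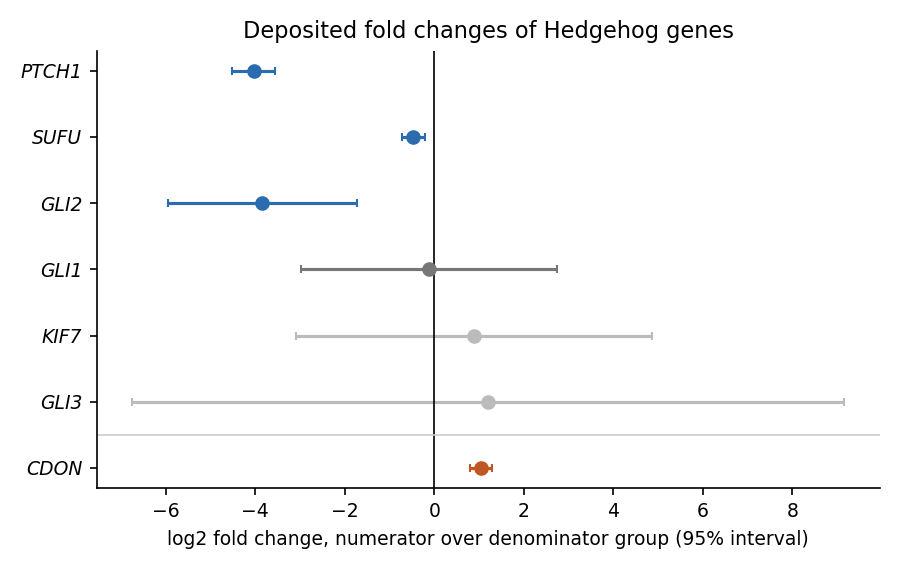
Deposited log2 fold change, numerator over denominator group, with 95% intervals for the 6 members with a value, above the grey line, and for CDON, below it. Blue marks lower and orange higher at an adjusted p of 0.05, dark grey an adjusted p above 0.05 and light grey none. PTCH1 (-4.03) and GLI2 (-3.84) lie far left of 0 with different widths, SUFU (-0.47) lies close to 0, and CDON (1.04) lies on the other side.

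The calls of GLI2 and SUFU were lost under some stricter tests and kept under another, and that of PTCH1 was not lost. PTCH1 was chosen for its fold change, and these tests reuse that value and its error. Its calls under them are therefore a description and no further support. Tested against a change of 1.5-fold, where 4.68% of all genes passed, PTCH1 was the only member called (adjusted p = 1.02e-41), while GLI2 had an adjusted p of 0.0536 and SUFU of 1. With errors widened 2.03-fold to the spread of all statistics, where 8.57% of all genes passed, PTCH1 was again the only member called (adjusted p = 1.04e-13), with 0.422 for GLI2 and 0.395 for SUFU. GLI2 and SUFU both stayed called under Benjamini-Yekutieli adjustment, a stricter correction of the same p-values (adjusted p = 0.01995 and 0.01447). The standard error of GLI2 was larger than those of 94.6% of the 1299 genes with means within 1.5-fold of its own, against a median of 0.49.

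**Figure D3:**
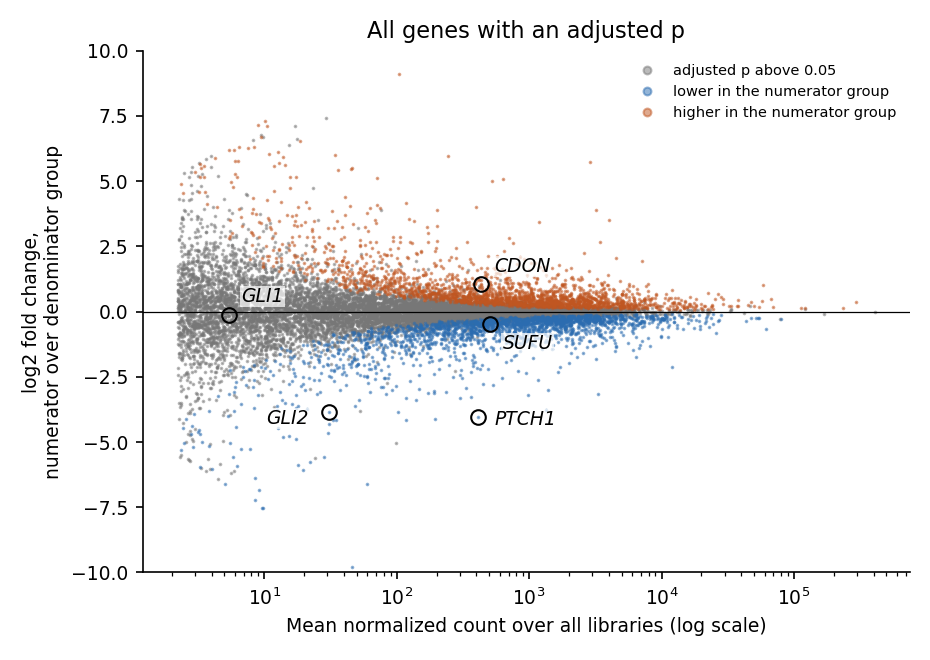
Mean normalized count (log axis) against deposited log2 fold change for genes with an adjusted p and a gene symbol, coloured by call, with 2 genes beyond 10 in either direction not shown. Circles mark PTCH1, GLI2, SUFU, GLI1 and the co-receptor CDON. PTCH1 (mean 408, log2 fold change -4.03) lies at the lower edge of the genes at its level, GLI2 lies at a like fold change and a lower level, and SUFU lies within the bulk of genes.

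The genes of most alike pattern, by distance in log2 mean and log2 fold change among genes past the threshold, were DDX60L, ADGRG2 and B3GALT2. In the authors' deposited table DDX60L had a mean of 361 and a log2 fold change of -3.28 (SE 0.17), at a distance of 0.78. ADGRG2, an adhesion G protein-coupled receptor, had 299 and -3.32 (SE 0.30) in the authors' deposited table, at 0.85, and B3GALT2, a galactosyltransferase, had 196 and -4.14 (SE 0.24), at 1.06. Likeness here rests on 2 values from 1 comparison.

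Of the genes next to PTCH1 on chromosome 9, none had a fold change of like size. Of the 5 other protein-coding genes of the table within 1 Mb, 4 have an adjusted p, of which 1 was lower and 0 were higher (25.0% called, against 29.5% of all genes). ERCC6L2, a helicase-like protein 359 kb away, was lower, and the authors' deposited table gave it -0.92 (SE 0.31, adjusted p = 0.0120). FANCC, a Fanconi anaemia protein 16.2 kb away, stood at -0.27 (SE 0.92, adjusted p = 0.882) from a mean of 26.6 per the authors' deposited table. AOPEP, an aminopeptidase, had 0.45 (SE 0.31) and HABP4 0.71 (SE 0.58), both per the authors' deposited table and both short of the threshold, and FBP1, a gluconeogenic enzyme, had a mean of 0.345 there. GENCODE 29 also places 3 antisense transcripts across PTCH1, which are not analysed here.

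**Figure D4:**
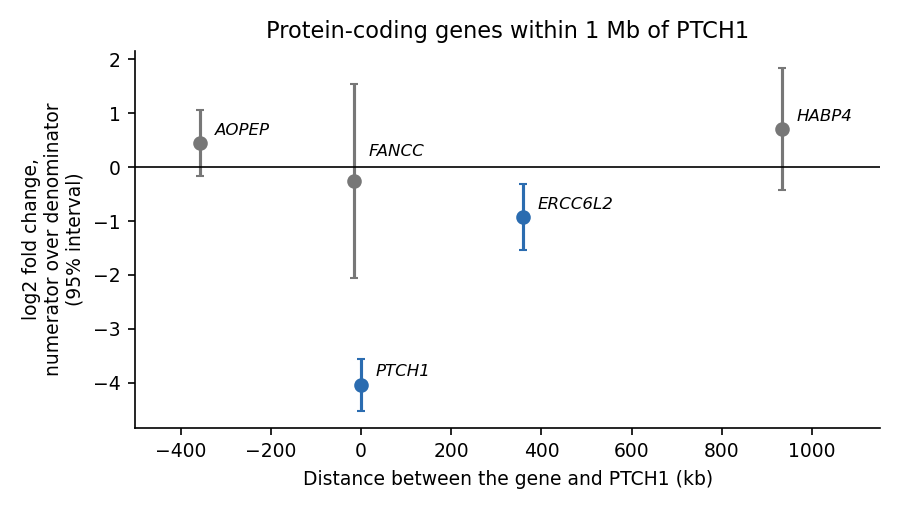
Distance between each protein-coding gene and PTCH1 in kb (0 is PTCH1) against the deposited log2 fold change with 95% intervals, for the genes with an adjusted p. Blue marks genes lower in the numerator group and grey an adjusted p above 0.05. PTCH1 lies at -4.03, and its 4 neighbours lie between -0.92 and 0.71.

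Of the ligands, 1 was in the table, near 0. SHH, a secreted ligand, had a mean of 0.106 in the authors' deposited table, which equals 1 of the 9 shared values, or 1 read in a library of the denominator group on that reading. IHH, DHH and HHAT, the acyltransferase of the ligands, were not analysed here. The ligand-release genes SCUBE1 at -1.63 (SE 0.89, adjusted p = 0.168) and DISP1 at -1.16 (SE 0.58, adjusted p = 0.123), as the authors' deposited table lists them, did not pass, and no gene of that list did.

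CDON, a cell-surface co-receptor that binds Hedgehog ligands together with PTCH1, went the other way. It was higher in the numerator group, and the authors' deposited table gave a mean of 436 and a fold change of 1.04 on the log2 scale (SE 0.13, adjusted p = 1.35e-14). The fold change of PTCH1 minus that of CDON was -5.08 (95% interval -5.62 to -4.53), as a description. BOC, a related co-receptor, was listed at 0 in the authors' deposited table, and HHIP, a ligand-binding inhibitor and GLI target, had a mean of 0.236. Receptor and co-receptor therefore lay on opposite sides of 0.

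Of the proteins that act on SMO or carry its signal, 14 were tested, of which 1 was higher, 2 were lower and 11 did not pass (21.4% called, against 29.5% of all genes), with a median log2 fold change of -0.14 against 0 over all genes tested. With the test limited to genes at or above 72.0, 3 of the 8 were called, beside 3797 of the 8315 genes at that level. ARRB1, a beta-arrestin, was lower at -1.04 (SE 0.10) in the authors' deposited table. DHCR7, which makes cholesterol from its last precursor, was higher at 0.53 (SE 0.06) in the authors' deposited table. ARRB2, the other beta-arrestin, was listed at 0.03 (SE 0.08, adjusted p = 0.855) there. Among 12 proteins with a sterol-sensing domain or related to patched, 5 were tested and DHCR7 alone passed (20.0% called).

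The kinases and ubiquitin ligases that control GLI proteins were expressed, with 20 of 20 at or above 72.0. Of these, 2 were higher, 3 were lower and 15 did not pass (25.0% called, against 29.5% of all genes), with a median log2 fold change of -0.08. The share over all genes includes many of low mean. With the test limited to genes at or above 72.0, 6 of the 20 were called, beside 3797 of the 8315 genes at that level. BTRC, the ubiquitin ligase subunit that marks GLI proteins for processing, was lower at -1.01 (SE 0.21) in the authors' deposited table. DYRK2, a kinase of GLI proteins, was lower at -0.56 (SE 0.10), and PRKACB, a catalytic subunit of protein kinase A, at -0.42 (SE 0.06) in the authors' deposited table. CSNK1D, a casein kinase, was higher at 0.20 (SE 0.04) and PRKAR1A, a regulatory subunit of protein kinase A, at 0.11 (SE 0.04) in the authors' deposited table. None of the 5 was called against a change of 1.5-fold.

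Genes known as GLI targets in other tissues went both ways. Of 23 in the table, 5 were listed at 0 and 12 were tested. Of the 12, 3 were higher, 3 were lower and 6 did not pass (50% called, against 29.5% of all genes). Their median log2 fold change was -0.22. With the test limited to genes at or above 72.0, 5 of the 8 were called, beside 3797 of the 8315 genes at that level. BCL2, an inhibitor of apoptosis, was lower at -1.19 (SE 0.14) and RUNX2, a transcription factor of bone and lymphocytes, at -0.59 (SE 0.07) in the authors' deposited table. RAB34, a GTPase of ciliogenesis named after its value was seen since its mean of 47.9 is below the minimum, was lower at -1.82 (SE 0.38) in the authors' deposited table. MYC, a transcription factor of cell growth, was higher at 0.73 (SE 0.14), CDK6, a cell-cycle kinase, at 0.48 (SE 0.04) and FOXM1, which regulates mitotic genes, at 0.22 (SE 0.07) in the authors' deposited table. Most of these genes have many other regulators. Of 2 genes regarded as direct targets, GLI1 had a mean of 5.37 and did not pass, and HHIP, at 0.236 in the authors' deposited table, has no adjusted p.

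Genes of ciliary transport and of the ciliary gate were expressed in 26 of 34 and split between directions. Of 32 tested, 6 were higher, 5 were lower and 21 did not pass (34.4% called, against 29.5% of all genes), with a median log2 fold change of 0.17. With the test limited to genes at or above 72.0, 11 of the 26 were called, beside 3797 of the 8315 genes at that level. KIFAP3, an adaptor of the kinesin that drives ciliary transport, was lower at -1.78 (SE 0.28) in the authors' deposited table. IFT22, a transport subunit, was lower at -0.95 (SE 0.27) and TCTN1, a gate protein, at -0.84 (SE 0.30) in the authors' deposited table. IFT81, which binds tubulin cargo, was higher at 1.28 (SE 0.46) and TMEM67, a gate membrane protein, at 0.81 (SE 0.28) in the authors' deposited table. None of IFT81, TMEM67, TCTN1 and IFT22 was called against a change of 1.5-fold or with widened errors, and with Benjamini-Yekutieli adjustment IFT81, TMEM67 and TCTN1 were not called either. Those 3 settings left 1, 1 and 5 of the 11 calls of the list. Counted once each, the 107 other Hedgehog and cilium genes of these lists in the table had 84 with an adjusted p, of which 13 were higher and 13 were lower (31.0% called), with fold changes between -2.13 and 1.28. PTCH1 and GLI2 lie below that whole range.

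**Figure D5:**
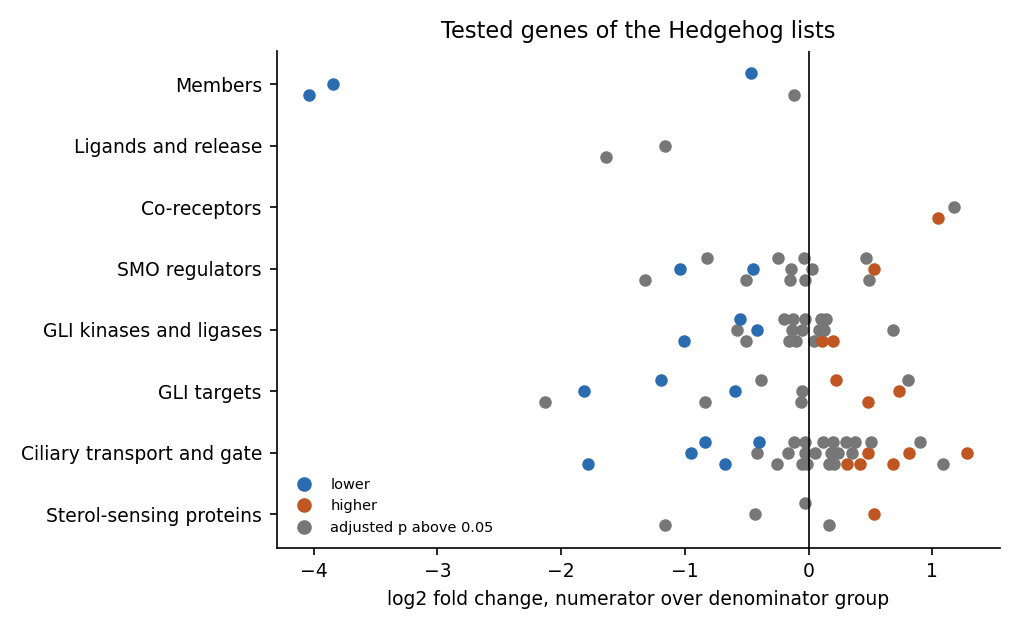
Deposited log2 fold change, numerator over denominator group, of every gene with an adjusted p in each list, with points spread vertically for legibility only. Blue marks lower, orange higher and grey an adjusted p above 0.05. PTCH1 (-4.03) and GLI2 (-3.84) lie left of every other gene shown, whose values range from -2.13 to 1.28.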

How the data were processed

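RNA of HEK293T cells and an alt-LAMA3 KO derivative (3 samples each) was sequenced from libraries of the SMARTer mRNA type, as the labels' protocols say. Tools named without version or role are STAR and Salmon, with the build hg38, per the submitters' processing notes. The deposited table has 6 columns, named as DESeq2 names its results, per the file headers. They are a mean normalized count, treated as a signal, a log2 fold change and its standard error (log2 scale), a Wald statistic (a score), a p-value and an adjusted p-value, all made by the authors. Which model and contrast were used is not stated in the labels or the header. Benjamini-Hochberg adjustment of the deposited p-values gave the deposited adjusted values to within 3.66e-07 over 13957 genes.

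The table holds no values per sample, so the planned fits on them (other normalization, replicate block, leaving out replicates) were not run, and the depth of each library is unknown. IDs were matched without version to symbols (33483 of 33644) and to GENCODE 29 (33582). Reads per gene were bounded by the lowest and highest of 9 means shared by at least 50 genes, taken as 1 read in 1 library. Intervals of 95% are normal intervals from the deposited errors. The alternatives were computed over all genes, after tests on simulated data. The members, lists and tests were chosen with earlier results of these data known. Named genes are the members, the ligands, up to 5 called and expressed genes per list with the largest change, up to 4 neighbours of PTCH1 on each side and the 3 genes most like it. Some items the rule would name are not reported here. Other genes were named after their values were seen. Python 3.11.15, numpy 2.4.6, pandas 2.3.3, scipy 1.17.1 and matplotlib 3.10.9 were used.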

Additional observations from a re-analysis of the deposited data

How the results depend on the processing

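No paired analysis was possible because the table holds no values per sample; fits with other tools or without 1 replicate were not run for the same reason. PTCH1 was called under all 6 alternatives, with adjusted p-values up to 1.04e-13, and GLI1 under none of the 5 that gave a value. The alternatives reuse the deposited values by which PTCH1 was chosen, so its calls are a description only. Against a 1.5-fold change, adjusted p-values were 0.0536 for GLI2 and 1 for SUFU, 653 genes were called in place of 4120, and counts were 1 of the members in place of 3, 1 SMO regulator in place of 3, 0 kinases and ligases in place of 5, 2 targets in place of 6, 1 ciliary gene in place of 11, 0 sterol-sensing proteins in place of 1 and 0 neighbours of PTCH1 in place of 1. With widened errors, adjusted p-values were 0.422 for GLI2 and 0.395 for SUFU, and counts were 1196 genes, 1 member, 1 kinase or ligase, 3 targets, 1 ciliary gene and 0 neighbours. Benjamini-Yekutieli adjustment left 3 members, 5 ciliary genes and 0 neighbours. Fewer calls follow from how these 3 are built. Of 26 other named genes with an adjusted p, 16 lost their call against 1.5-fold, 12 with widened errors and 5 with Benjamini-Yekutieli adjustment. Without a filter on low means, with only genes at or above 72.0, and with centred fold changes, counts stayed within 1.5 times. Of the members, 2 were expressed at a minimum of 5 or 10 per 1000000 and 3 at 1 per 1000000. KIF7, GLI3 and SHH, with means of 1.33, 0.234 and 0.106, have no adjusted p, and the 95% interval of GLI1 runs from -2.98 to 2.74.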
